A study of Mus musculus with 8 samples.

Results

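Laminins are the trimeric proteins on which epithelial basement membranes are built, and integrins are the paired membrane receptors by which cells hold on to laminins, other matrix proteins, and other cells. The 37 genes described here are those among the 55450 genes of the table whose symbols name a laminin alpha, beta, or gamma chain (11 genes) or an integrin alpha (18 genes) or beta (8 genes) chain. Within these families every gene was taken by its symbol, whatever its expression. To compare these genes between thymic epithelial cell (TEC) populations, RNA-sequencing data were used from CD45-EpCAM+ TECs of E17 RANK-Venus/CCL21a-tdTomato mouse embryos. Venus in these embryos reports Tnfrsf11a, the gene that encodes RANK, and tdTomato was placed in the Ccl21a gene. All sorted cells came from embryos with both reporters, and 3 libraries were made from CCL21+RANK- TECs, 3 from CCL21-RANK+ TECs, and 2 from CCL21-RANK- TECs. These are called CCL21+, RANK+, and reporter-negative TECs below. The study describes its replicates as biological in general terms, but whether a library pools several embryos, or whether libraries of a population came from separate sorts, is not stated, and p-values measure the spread between these libraries. The totals were 59677315, 46003128, and 55116911 counts in CCL21+, 57286762, 50146730, and 42751839 in RANK+, and 67451440 and 71625282 in reporter-negative TECs, given as in all lists of values below in the order of replicate number.

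The reporters and the epithelial identity of the sort were checked first. Levels are given as RPKM, which are counts scaled to exon length in kilobases and to the library total. Tnfrsf11a was at 111, 93.1, and 107 RPKM in RANK+ TECs and at most 10.3 RPKM in any other library. Ccl21a was at 561, 346, and 305.5 RPKM in CCL21+ TECs, 152, 96.0, and 78.2 RPKM in RANK+ TECs, and 6.88 and 8.87 RPKM in reporter-negative TECs. Epcam was between 49.5 and 156 RPKM in the 8 libraries, whereas Ptprc, which encodes the leukocyte antigen CD45, was at most 0.576 RPKM. Markers of other cell types differed between the populations. The 4 parathyroid markers, led by Chga, summed to 7122, 1750.0, and 1955 RPKM in CCL21+ TECs but to between 11.1 and 24.9 RPKM in the other 5 libraries, so that CCL21+ replicate 1 stood apart from its group. All 4 were called higher in CCL21+ TECs than in both other populations. The 10 thymic epithelium markers, led by Krt18, summed to 5344, 5099, and 5759 RPKM in CCL21+ TECs, 2118, 2182, and 1829 RPKM in RANK+ TECs, and 4218 and 4480.0 RPKM in reporter-negative TECs. This sum was lowest in RANK+ TECs, and the parathyroid sum exceeded it in CCL21+ replicate 1. Of the 10, 6 were called higher in CCL21+ and 3, namely Aire, Tnfrsf11a, and Epcam, in RANK+ TECs (15.4% of all tested genes in each direction). The 7 myeloid markers, led by Lyz2, summed to 67.3, 21.8, and 25.4 RPKM in RANK+ TECs and to at most 1.33 RPKM in the other libraries, with replicate 1 of RANK+ TECs the highest. The 8 mesenchyme markers, led by Col1a1, summed to 52.8, 27.2, and 33.1 RPKM in RANK+ TECs and to between 2.38 and 4.35 RPKM elsewhere. Of these 8, 5 were called higher in RANK+ than in CCL21+ TECs and 0 lower (15.4% of all tested genes in each direction). Pdgfra and Twist1 went the other way, with group means of 0.196 and 0.953 RPKM in CCL21+ and of 0.0680 and 0.0692 RPKM in RANK+ TECs, without overlap. Values without CCL21+ replicate 1 or RANK+ replicate 1 are therefore given where these libraries matter. In bulk libraries such as these, fewer cells of a type and less RNA per cell cannot be told apart.

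Each laminin molecule joins 1 alpha, 1 beta, and 1 gamma chain, and the choice of chains differs between tissues. The laminin that holds the Lama3 and Lamb3 products anchors stratified epithelia, where the integrin of the Itga6 and Itgb4 products binds it in hemidesmosomes. Trimers of the Lama5 product with Lamb1 or Lamb2 and Lamc1 products are the common laminins of simple epithelia. In the thymus, whose epithelium forms a network of cells rather than a flat sheet, laminins and integrins are known both at the capsule and vessels and between epithelial cells.

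Lama3, Lama5, Lamb1, Lamb3, and Lamc1, 5 of the 11 laminin genes, were called lower in RANK+ TECs than in both other populations. Of all tested genes, 10.6% were called lower in RANK+ TECs than in both and not called between those. A further 0.578% were also called higher in CCL21+ than in reporter-negative TECs, as Lamb3 was, and 0.541% were also called lower. A gene was called at an adjusted p-value under 0.05 in edgeR, a fold change over 1.5, and a mean over 1 RPKM in the higher group. By this rule 7 of 11 laminin genes were called higher in CCL21+ than in RANK+ TECs, and 0 were called lower. Lama2, Lama4, and Lamc3 were lower in CCL21+ TECs (edgeR adjusted p = 0.000645, 0.00657, and 0.00928) but missed the level or fold threshold. For all 37 members the counts were 12 higher in CCL21+ TECs, where 15.4% of the 21451 tested genes were called, and 6 higher in RANK+ TECs, where 15.4% of tested genes were called as well. The other 19 members did not pass. The median log2 fold change of the 11 laminins was 1.62, beside -0.11 over all tested genes. Against reporter-negative TECs, which share the RANK+ libraries with that comparison, Lama4 and the 5 genes named first were called lower in RANK+ TECs, although not every call among laminins went that way, with a median of -1.40 beside 0.06 over all tested genes. For all members, 8 were higher in RANK+ TECs (14.4% of all tested genes) and 10 in reporter-negative TECs (15.1%). The comparison of CCL21+ with reporter-negative TECs gave fewer calls, among them Lama1, Lamb2, and Lamb3 higher in the first and Lama4 in the second. Of all members, 9 were higher in CCL21+ TECs (4.35% of all tested genes) and 2 in reporter-negative TECs (3.66%). The laminin median of 0.42 stood beside 0 over all tested genes there. The sum of thymic epithelium markers, like these laminins, was lowest in RANK+ TECs, and what part that has in the laminin levels was not tested.

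**Figure D1:**
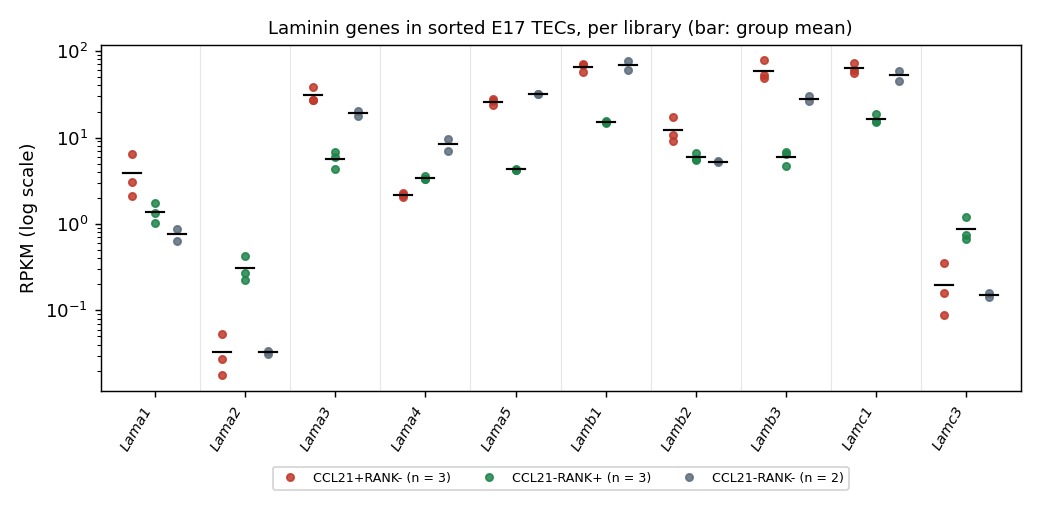
RPKM of 10 laminin genes on a log scale, with a point for each library of the 3 populations and a black bar at the group mean. In RANK+ TECs Lama3, Lama5, Lamb1, Lamb3, and Lamc1 sit below all libraries of the other populations, whereas Lama4 is highest in reporter-negative TECs.

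Lama5, the alpha chain of the common epithelial laminins, was at 23.7, 26.4, and 27.8 RPKM in CCL21+ TECs, 4.34, 4.26, and 4.25 RPKM in RANK+ TECs, and 31.6 and 32.0 RPKM in reporter-negative TECs. Its 3 RANK+ libraries lay far below the 5 others, which spanned a narrow range. Lama5 (chromosome 2, 180176373 to 180225859, GRCm38) was 6.59-fold lower in RANK+ than in CCL21+ TECs (log2 fold change 2.72 ± 0.11 SE, edgeR adjusted p = 2.77e-07) and 8.06-fold lower than in reporter-negative TECs (log2 fold change -3.01 ± 0.12 SE, edgeR adjusted p = 2.69e-07). CCL21+ and reporter-negative TECs did not pass the test for Lama5 (log2 fold change -0.29, edgeR adjusted p = 0.146).

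Its beta and gamma partners were also lowest in RANK+ TECs. Lamb1 was at 71.3, 58.0, and 69.0 RPKM in CCL21+ TECs, 15.2, 14.9, and 15.6 RPKM in RANK+ TECs, and 59.9 and 76.4 RPKM in reporter-negative TECs. Lamc1, the gamma chain of most laminins, was at 72.3, 55.9, and 61.0 RPKM, 15.6, 18.7, and 15.2 RPKM, and 45.2 and 59.4 RPKM in the same order of populations. For both genes the 3 RANK+ libraries lay below all others, and the other populations overlapped. Lamb1 (chromosome 12, 31265234 to 31329644) was 4.71-fold lower in RANK+ than in CCL21+ TECs (log2 fold change 2.24 ± 0.12 SE, edgeR adjusted p = 7.62e-07), and Lamc1 (chromosome 1, 153218922 to 153332786) 4.13-fold lower (log2 fold change 2.05 ± 0.15 SE, edgeR adjusted p = 4.54e-06). Against reporter-negative TECs the folds were 4.84 for Lamb1 and 3.41 for Lamc1 (edgeR adjusted p = 1.12e-06 and 2e-05). Lamb2, the beta chain that can take the place of Lamb1, did not share this pattern. Its values were 17.2, 9.12, and 10.7 RPKM in CCL21+ TECs, 6.62, 5.68, and 5.48 RPKM in RANK+ TECs, and 5.31 and 5.17 RPKM in reporter-negative TECs. Lamb2 was thus high only in CCL21+ TECs, by 2.27-fold over RANK+ TECs (log2 fold change 1.18 ± 0.20 SE, edgeR adjusted p = 0.000963) and 2.35-fold over reporter-negative TECs (log2 fold change 1.23 ± 0.23 SE, edgeR adjusted p = 0.00945). CCL21+ replicate 1, the library with the most parathyroid marker RNA, was the highest of all 8, as it was among others for Lama1, Lama3, Lamb3, Lamc1, Itga1, Itga5, Itgav, Itgb1, Itgb4, and Itgb5, and the part of parathyroid cells in these levels was not tested. Of the called members, leaving out this library moved a fold by over 1.5 times only for Lama1 and Itgb6. Without CCL21+ replicate 1 the log2 fold changes of Lamb2 in CCL21+ over RANK+ and over reporter-negative TECs were 0.86 and 0.91 (edgeR adjusted p = 0.000291 and 0.00311). Without reporter-negative replicate 1 or 2 the second did not pass (edgeR adjusted p = 0.0591 and 0.107).

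The alpha and beta chain genes of the hemidesmosomal laminin were lowest in RANK+ TECs as well. Lama3, its alpha chain, was at 37.9, 27.1, and 27.3 RPKM in CCL21+ TECs, 5.94, 6.80, and 4.36 RPKM in RANK+ TECs, and 17.8 and 20.4 RPKM in reporter-negative TECs. Lamb3, its beta chain (chromosome 1, 193207699 to 193343878), was at 78.1, 52.4, and 48.2 RPKM, 6.77, 6.51, and 4.67 RPKM, and 26.4 and 30.0 RPKM in the same populations. For both genes the RANK+ libraries were the lowest of all, without overlap. Lama3 was 5.86-fold lower in RANK+ than in CCL21+ TECs (log2 fold change 2.55 ± 0.20 SE, edgeR adjusted p = 6.05e-06), and Lamb3 10.9-fold lower (log2 fold change 3.44 ± 0.22 SE, edgeR adjusted p = 1.99e-06). Against reporter-negative TECs Lama3 was 3.63-fold and Lamb3 5.10-fold lower (edgeR adjusted p = 7.22e-05 and 2.48e-05). Lamb3 was also 2.13-fold higher in CCL21+ than in reporter-negative TECs (edgeR adjusted p = 0.0159), a difference that did not pass without either reporter-negative library (edgeR adjusted p = 0.116 without replicate 1 and 0.12 without replicate 2). An antisense gene, Gm29200, overlaps the exons of Lama3 but held 231 counts over the 8 libraries beside 91815 for Lama3.

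Ratios within a library do not depend on its total, and they compare the change of chains directly. The pairs were chosen after their values were seen. The ratio of Lamb3 to Lama3 RPKM was 2.06, 1.94, and 1.77 in CCL21+ TECs, 1.14, 0.958, and 1.07 in RANK+ TECs, and 1.48 and 1.47 in reporter-negative TECs. The 3 populations did not overlap. The ratio of Lamc1 to Lamb1 RPKM was between 0.754 and 1.26 in all 8 libraries. Exact permutation tests over 3 against 3 libraries cannot go below p = 0.1, nor below p = 0.2 over 3 against 2 (both two-sided), and these values were reached for the ratio of Lamb3 to Lama3.

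The make-up of the alpha and beta chain classes differed between the populations. Lamb3 made up 42.8% ± 4.67, 22.0% ± 3.30, and 27.8% ± 1.35 (SD, n = 3, 3, and 2) of summed beta chain RPKM in CCL21+, RANK+, and reporter-negative TECs, and Lamb2 8.77% ± 1.41, 21.8% ± 1.18, and 5.22% ± 0.825. The summed beta chain RPKM was 166.7, 119.5, and 127.9 in CCL21+, 28.6, 27.1, and 25.7 in RANK+, and 91.6 and 111.6 in reporter-negative TECs. The larger share of Lamb2 in RANK+ TECs thus went with a smaller sum. Its level there was lower than in CCL21+ TECs and 1.04-fold that in reporter-negative TECs, which was not called (edgeR adjusted p = 0.87). Among alpha chains, Lama5 was the most abundant in reporter-negative TECs with 53.1% ± 3.07 (SD, n = 2). Lama4 made up 3.50% ± 0.442 (SD, n = 3) in CCL21+ TECs, 22.8% ± 3.34 (SD, n = 3) in RANK+ TECs, where the summed RPKM of the class was smaller, and 13.8% ± 2.00 (SD, n = 2) in reporter-negative TECs. The mesenchyme marker sums given above and the endothelial ones given below were also highest in RANK+ TECs. For the shares of Lamb3 and Lamb2 all 3 comparisons gave the smallest p that the exact permutation test allows, 0.1 for CCL21+ against RANK+ TECs and 0.2 otherwise, so that none could pass 0.05.

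**Figure D2:**
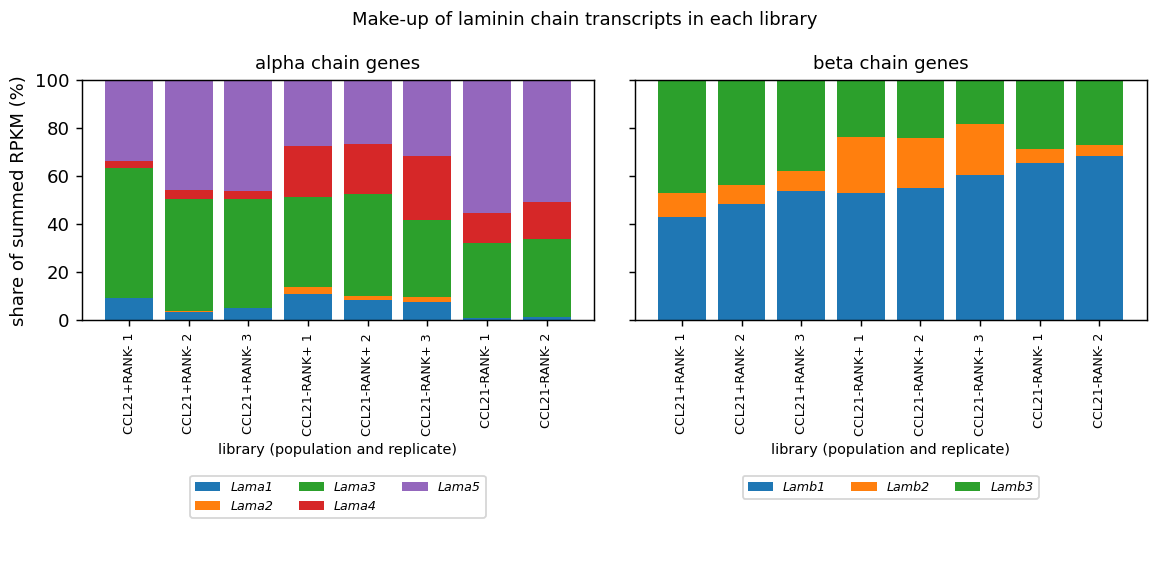
Stacked bars of the share (percent of summed RPKM) of each alpha and beta laminin chain gene in each of the 8 libraries. The mean share of Lamb2 is 21.8% in RANK+ TECs, beside 8.77% in CCL21+ and 5.22% in reporter-negative TECs, while the level of Lamb2 is highest in CCL21+ TECs.

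Lama4, an alpha chain known from vessels and mesenchyme, was called higher in reporter-negative TECs than in both other populations. It was at 2.18, 2.30, and 2.05 RPKM in CCL21+ TECs, 3.35, 3.28, and 3.60 RPKM in RANK+ TECs, and 7.07 and 9.56 RPKM in reporter-negative TECs, without overlap between any of the populations. Lama4 (chromosome 10, 38965515 to 39110188) was 3.77-fold higher in reporter-negative than in CCL21+ TECs (log2 fold change -1.92 ± 0.14 SE, edgeR adjusted p = 8.41e-05) and 2.63-fold higher than in RANK+ TECs (log2 fold change -1.40 ± 0.14 SE, edgeR adjusted p = 3.12e-05). The 6 endothelial markers, led by Tek, summed to 0.222 and 0.180 RPKM in the reporter-negative libraries, 0.524, 0.531, and 0.388 RPKM in CCL21+ TECs, and 6.88, 2.84, and 2.76 RPKM in RANK+ TECs. The mesenchyme markers summed to 4.35 and 2.38 RPKM in the reporter-negative and to 4.07, 3.73, and 2.62 RPKM in the CCL21+ libraries. Both sums were highest in RANK+ TECs, where Lama4 lay between the other populations, and the part of these cells in its level was not tested. Lama1, an alpha chain of embryonic basement membranes, was low, at 6.52, 2.13, and 3.04 RPKM in CCL21+ TECs, 1.76, 1.36, and 1.01 RPKM in RANK+ TECs, and 0.635 and 0.878 RPKM in reporter-negative TECs. It was 3.07-fold higher in CCL21+ than in RANK+ TECs (log2 fold change 1.62 ± 0.36 SE, edgeR adjusted p = 0.00411), and the log2 fold change was 1.02 without CCL21+ replicate 1, which was the highest library (edgeR adjusted p = 0.00471). It was also higher than in reporter-negative TECs (log2 fold change 2.37 ± 0.43 SE, edgeR adjusted p = 0.00774), a difference that did not pass without reporter-negative replicate 1 (edgeR adjusted p = 0.0808) or replicate 2 (edgeR adjusted p = 0.0629), and that was 1.77 without CCL21+ replicate 1. Lama2, the muscle laminin alpha chain, and Lamc3 stayed under 1 RPKM in every group mean and were therefore not called. In RANK+ TECs Lama2 was at 0.425, 0.227, and 0.271 RPKM and Lamc3 at 1.22, 0.740, and 0.664 RPKM, above all other libraries. Both were lower in CCL21+ than in RANK+ TECs (log2 fold change -3.06 and -1.98, edgeR adjusted p = 0.000645 and 0.00928). The highest values of both were in RANK+ replicate 1, the library with the highest sums of myeloid and mesenchyme markers. The part of those cells in these values was not tested.

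Since many laminin genes were called in the same direction, the promoters of the members were searched for letters of NF-kB, a family of factors activated by RANK, and of AP-1. RefSeq windows of 250 bases before to 50 bases after the gene start on GRCm38.p6 were available for 23 members (26 windows), among them 5 laminins. The letters GGGA, any 4 bases, and CC were found on either strand in 20.7% of all 32851 windows and in 10 of the 26 member windows. Counted by gene, which is not the unit of that share, these were 5 of 5 laminin and 3 of 18 integrin genes. Lama3 and Lamc1 had no window. The AP-1 letters TGANTCA, also on both strands, were found in 7.81% of all windows and, among members, in those of Itga3, Itga9, and Itgax, where no match overlapped 1 of the NF-kB letters. For each of the 5 laminin genes 1 NF-kB match is shown to let the letters be compared. Lamb3 also gave a match of the same letters at bases -226 to -217 from a gene start, which is not shown. Each match has 10 bases on either side, 5′ to 3′ on the strand of the gene, with the matched letters in capitals.
Lama2, chr10:27616932-27616961 (minus strand): ggaaggggtgGGGACTGCCCtttctcaccc
Lama5, chr2:180225862-180225891 (minus strand): cggggccagcGGGACCGGCCgccccaaact
Lamb1, chr12:31265252-31265281 (plus strand): cgcctccctcGGTTCCTCCCtaggcgaaac
Lamb2, chr9:108479628-108479657 (plus strand): atttctttttGGATGCTCCCttttagttcc
Lamb3, chr1:193302007-193302036 (plus strand): cacccagccaGGGAGTCTCCagaggtgagg
The Lamb1 and Lamb3 sites lie in annotated exons (untranslated part), the Lama2 site partly in an exon, and the Lama5 and Lamb2 sites outside the exons of their genes in GENCODE. Lamb1 and Lamb2 hold the letters on the opposite strand. Of these 5 genes, Lama5, Lamb1, and Lamb3 were called lower in RANK+ TECs than in both other populations, and Lama2 and Lamb2 were not. What part these letters have in the levels was not tested. A match of letters is a description and not a binding site.

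Among integrins, chains for epithelial laminin receptors were expressed in all 3 populations. Of 18 alpha chain genes, 3 were higher in CCL21+ and 3 in RANK+ TECs, and of 8 beta chain genes 2 and 3 (15.4% of all tested genes in each direction). Against reporter-negative TECs, 3 alpha and 4 beta chain genes were higher and 2 alpha and 2 beta chain genes were lower in RANK+ TECs (14.4% and 15.1% of all tested genes). The alpha chain counts in both comparisons were thus near or below the shares of all tested genes. Between CCL21+ and reporter-negative TECs, 3 alpha and 2 beta chain genes were higher in the first, and 1 alpha and 0 beta chain genes in the second (4.35% and 3.66% of all tested genes).

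**Figure D3:**
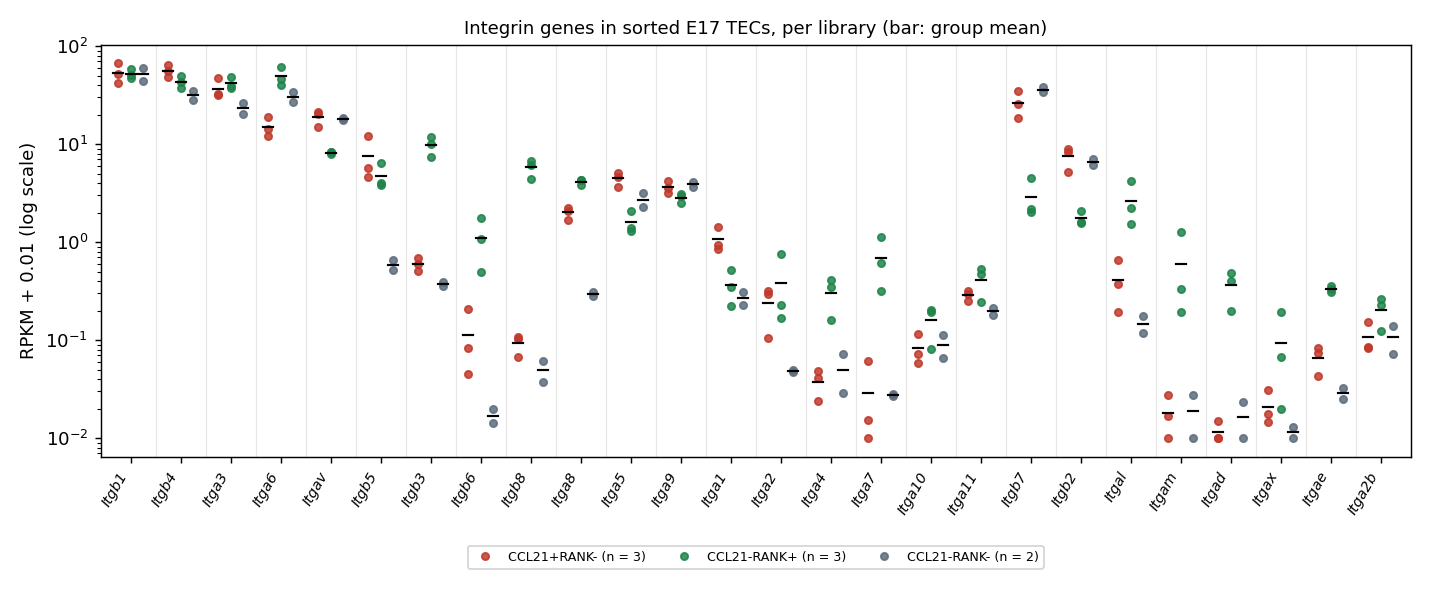
RPKM plus 0.01 of the 26 integrin genes on a log scale, with a point for each library and a black bar at the group mean. Itgb3 and Itgb8 stand above all libraries of the other populations in RANK+ TECs, and Itgb7, Itgb2, and Itgav stand below them.

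Itgb1, the common beta chain of laminin, collagen, and fibronectin receptors, was at 66.6, 41.9, and 52.4 RPKM in CCL21+ TECs, 58.0, 46.9, and 50.9 RPKM in RANK+ TECs, and 44.4 and 59.5 RPKM in reporter-negative TECs. The populations overlapped, and no comparison passed (edgeR adjusted p = 0.387, 0.92, and 0.613, with log2 fold changes of 0.17, 0.05, and -0.11). Itga3, which pairs with Itgb1 in a laminin receptor, was at 46.8, 31.4, and 32.2 RPKM in CCL21+ TECs, 48.3, 37.5, and 38.8 RPKM in RANK+ TECs, and 20.3 and 26.5 RPKM in reporter-negative TECs. It overlapped between the first populations and was called higher in RANK+ than in reporter-negative TECs (log2 fold change 0.71 ± 0.19 SE, edgeR adjusted p = 0.0111), although not without reporter-negative replicate 1 (edgeR adjusted p = 0.102). The call over reporter-negative TECs in CCL21+ TECs (log2 fold change 0.66 ± 0.19 SE, edgeR adjusted p = 0.0495) was at the threshold and was lost without any 1 of 6 libraries, among them CCL21+ replicate 1 (edgeR adjusted p = 0.0947).

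The pair that forms the hemidesmosomal laminin receptor changed unequally. Itga6 was at 18.8, 12.1, and 14.2 RPKM in CCL21+ TECs, 61.1, 40.2, and 45.8 RPKM in RANK+ TECs, and 26.6 and 33.9 RPKM in reporter-negative TECs, with no overlap between any of the populations. Itga6 (chromosome 2, 71745616 to 71858416) was 3.00-fold lower in CCL21+ than in RANK+ TECs (log2 fold change -1.58 ± 0.18 SE, edgeR adjusted p = 5.51e-05) and 2.01-fold lower than in reporter-negative TECs (log2 fold change -1.01 ± 0.19 SE, edgeR adjusted p = 0.00876), the latter not without reporter-negative replicate 2 (edgeR adjusted p = 0.0873). Itgb4, its partner, was at 64.0, 48.9, and 56.2 RPKM in CCL21+ TECs, 49.5, 43.0, and 37.0 RPKM in RANK+ TECs, and 28.3 and 34.9 RPKM in reporter-negative TECs. Its only call was in the other direction, with a 1.79-fold higher level in CCL21+ than in reporter-negative TECs (log2 fold change 0.84 ± 0.15 SE, edgeR adjusted p = 0.00621). That call was lost without reporter-negative replicate 1 (edgeR adjusted p = 0.076). Accordingly, the ratio of Itga6 to Itgb4 RPKM was 0.293, 0.247, and 0.252 in CCL21+ TECs, 1.23, 0.937, and 1.24 in RANK+ TECs, and 0.941 and 0.973 in reporter-negative TECs. The exact permutation p was 0.1 for CCL21+ against RANK+ TECs, 0.2 for CCL21+ against reporter-negative TECs, the smallest values possible, and 0.6 for RANK+ against reporter-negative TECs (two-sided). This pair too was chosen after its values were seen.

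Integrin alpha v, the Itgav product, joins several beta chains to bind matrix proteins and, with the Itgb6 or Itgb8 product, latent TGF-beta. Itgav itself was at 21.2, 14.9, and 20.1 RPKM in CCL21+ TECs, 8.22, 7.91, and 8.37 RPKM in RANK+ TECs, and 17.5 and 18.7 RPKM in reporter-negative TECs. The RANK+ libraries lay below all others, 2.48-fold under CCL21+ TECs (log2 fold change 1.31 ± 0.12 SE, edgeR adjusted p = 1.29e-05) and 2.41-fold under reporter-negative TECs (log2 fold change -1.27 ± 0.13 SE, edgeR adjusted p = 3.26e-05). Of the integrin genes called higher in RANK+ than in CCL21+ TECs, its beta partners Itgb8, Itgb3, and Itgb6 had the largest fold changes. Itgb8 was at 0.0939, 0.0570, and 0.0984 RPKM in CCL21+ TECs, 6.75, 4.42, and 6.17 RPKM in RANK+ TECs, and 0.0509 and 0.0278 RPKM in reporter-negative TECs. Itgb3 was at 0.594, 0.497, and 0.673 RPKM, 11.9, 7.44, and 10.1 RPKM, and 0.349 and 0.383 RPKM in the same populations. Neither gene overlapped between RANK+ TECs and the others. Itgb8 (chromosome 12, 119158022 to 119238802) was 63.4-fold higher in RANK+ than in CCL21+ TECs (log2 fold change -5.99 ± 0.27 SE, edgeR adjusted p = 4.22e-07) and 134-fold higher than in reporter-negative TECs (edgeR adjusted p = 6.73e-07), and Itgb3 (chromosome 11, 104608000 to 104670476) was 15.3-fold (log2 fold change -3.94 ± 0.17 SE, edgeR adjusted p = 3.55e-07) and 24.5-fold higher (edgeR adjusted p = 4.75e-07). Without RANK+ replicate 1 the log2 fold changes against CCL21+ TECs were -5.91 for Itgb8 and -3.82 for Itgb3.

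Itgb3 is also the platelet integrin beta chain, where it pairs with Itga2b. Itga2b was between 0.113 and 0.253 RPKM in the RANK+ libraries, beside 7.44 to 11.9 RPKM of Itgb3. The 5 platelet markers, led by Gp9, summed to 13.5, 1.72, and 4.26 RPKM in these libraries, with 2 of 5 called higher than in CCL21+ TECs (15.4% of all tested genes). Itgb6 had the same direction at a low level, with 1.74, 0.485, and 1.06 RPKM in RANK+ TECs and 0.200, 0.0734, and 0.0357 RPKM in CCL21+ TECs, and with 2 and 5 counts in the reporter-negative libraries. It was called against both (log2 fold change -3.24 ± 0.66 SE and edgeR adjusted p = 0.00254 against CCL21+ TECs), but its mean was below 1 RPKM without RANK+ replicate 1. Without CCL21+ replicate 1 the log2 fold change of Itgb6 over CCL21+ TECs was -4.16 (edgeR adjusted p = 0.000894). Itgb5 separated other populations. Its values were 12.0, 4.62, and 5.76 RPKM in CCL21+ TECs, 6.46, 3.97, and 3.85 RPKM in RANK+ TECs, and 0.505 and 0.640 RPKM in reporter-negative TECs. Both reporter-positive populations overlapped, and both lay above the reporter-negative libraries, 13.1-fold for CCL21+ (log2 fold change 3.71 ± 0.43 SE, edgeR adjusted p = 0.00093) and 7.62-fold for RANK+ TECs (log2 fold change 2.93 ± 0.42 SE, edgeR adjusted p = 0.000342). Without CCL21+ replicate 1, the highest library, the first log2 fold change was 3.18 (edgeR adjusted p = 0.000289).

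Alpha partners of Itgb1 for other ligands differed as well. Itga8, whose pair with Itgb1 binds nephronectin, was at 2.25, 2.08, and 1.68 RPKM in CCL21+ TECs, 4.26, 4.35, and 3.78 RPKM in RANK+ TECs, and 0.298 and 0.271 RPKM in reporter-negative TECs, without overlap. All 3 comparisons passed, with log2 fold changes of -0.92 for CCL21+ over RANK+ TECs, 2.82 for CCL21+ over reporter-negative TECs, and 3.74 for RANK+ over reporter-negative TECs (edgeR adjusted p = 0.00145, 0.000103, and 1.84e-06). An antisense gene, E030013I19Rik, overlaps its exons with 336 counts beside 7263 for Itga8, and whether the authors counted by strand is not given in the sources used here. Itga5, whose pair with Itgb1 is a fibronectin receptor, was at 5.05, 4.62, and 3.68 RPKM in CCL21+ TECs, 2.09, 1.30, and 1.37 RPKM in RANK+ TECs, and 2.26 and 3.17 RPKM in reporter-negative TECs. It was 3.09-fold lower in RANK+ than in CCL21+ TECs (log2 fold change 1.63 ± 0.22 SE, edgeR adjusted p = 0.000178) and lower than in reporter-negative TECs (log2 fold change -0.89 ± 0.23 SE, edgeR adjusted p = 0.0107), the latter not without reporter-negative replicate 2 (edgeR adjusted p = 0.105) or RANK+ replicate 3 (edgeR adjusted p = 0.0516). Itga1, a collagen receptor chain, was at 1.41, 0.927, and 0.845 RPKM in CCL21+ TECs and at most 0.515 RPKM in the others. It was called higher in CCL21+ TECs against both (log2 fold change 1.72 ± 0.31 SE against RANK+ and log2 fold change 2.04 ± 0.36 SE against reporter-negative TECs, edgeR adjusted p = 0.00113 and 0.00632), but without CCL21+ replicate 1 its mean was below 1 RPKM, and the second call was also lost without reporter-negative replicate 1 or 2 (edgeR adjusted p = 0.0723 and 0.0524). Itga1 shares 685 exon bases with Gm49395 on the same strand, which held 780 counts over the 8 libraries beside 4922 for Itga1. Itga9 was expressed at 2.47 to 4.20 RPKM in the 8 libraries and was called in no comparison. Its level in RANK+ TECs was 1.40-fold below CCL21+ and 1.49-fold below reporter-negative TECs (edgeR adjusted p = 0.0113 and 0.00865), under the fold threshold of 1.5. Itga2, Itga7, Itga10, and Itga11 stayed under 1 RPKM in every group mean. Of these Itga7 reached 1.12, 0.310, and 0.610 RPKM in RANK+ TECs, with 25, 2, and 0 counts in the CCL21+ and 10 and 10 in the reporter-negative libraries.

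A pair of integrin beta chains best known from leukocytes had the opposite order. Itgb7 was at 18.6, 25.9, and 34.8 RPKM in CCL21+ TECs, 2.02, 4.49, and 2.15 RPKM in RANK+ TECs, and 34.1 and 37.9 RPKM in reporter-negative TECs. Itgb2 was at 5.22, 8.22, and 8.99 RPKM, 2.05, 1.57, and 1.59 RPKM, and 6.11 and 7.08 RPKM in the same populations. For both genes the RANK+ libraries lay below all others, and CCL21+ and reporter-negative TECs did not pass the test (edgeR adjusted p = 0.467 for Itgb7 and 0.671 for Itgb2). Itgb7 (chromosome 15, 102215995 to 102231944) was 9.78-fold lower in RANK+ than in CCL21+ TECs (log2 fold change 3.29 ± 0.34 SE, edgeR adjusted p = 3.41e-05) and 13.4-fold lower than in reporter-negative TECs (edgeR adjusted p = 2.67e-05), and Itgb2 was 4.69-fold (log2 fold change 2.23 ± 0.21 SE, edgeR adjusted p = 1.69e-05) and 4.13-fold lower (edgeR adjusted p = 5.39e-05). Per length, Itgb7 was at 18.6 to 37.9 RPKM in CCL21+ and reporter-negative TECs, beside 20.3 to 46.8 RPKM of Itga3, whereas its known alpha partners were near 0. Itga4 was at most 0.0615 RPKM and Itgae at most 0.0732 RPKM in those 5 libraries. Likewise, the alpha partners of Itgb2 were at most 0.650 RPKM for Itgal, 0.0177 RPKM for Itgam, 0.0132 RPKM for Itgad, and 0.0209 RPKM for Itgax. Ptprc was at most 0.193 RPKM, the B cell markers, led by Cd79b, summed to at most 0.902 RPKM, and the thymocyte markers, led by Rag1, to at most 10.5 RPKM in the same libraries.

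The alpha partners instead had their highest values in RANK+ TECs, where Itgb7 and Itgb2 were lowest. Itgal, the alpha chain of LFA-1, was at 4.21, 1.52, and 2.21 RPKM in RANK+ TECs, 0.650, 0.182, and 0.365 RPKM in CCL21+ TECs, and 0.165 and 0.108 RPKM in reporter-negative TECs. It was called higher in RANK+ TECs against both (log2 fold change -2.59 ± 0.48 SE and edgeR adjusted p = 0.00137 against CCL21+ TECs, log2 fold change 4.12 ± 0.61 SE and edgeR adjusted p = 0.000436 against reporter-negative TECs). Itgam reached 1.26, 0.322, and 0.186 RPKM, Itgad 0.476, 0.190, and 0.394 RPKM, and Itgax 0.182, 0.0581, and 0.00974 RPKM in the RANK+ libraries, and Itga4 0.400, 0.153, and 0.336 RPKM and Itgae 0.351, 0.300, and 0.327 RPKM, all with group means under 1 RPKM and none called. Itgax also missed the p-value threshold between CCL21+ and RANK+ TECs (edgeR adjusted p = 0.0863). RANK+ replicate 1 was the highest for each of these alpha chains, as it was for the myeloid, platelet, B cell, and endothelial marker sums. In RANK+ against CCL21+ TECs 6 of 7 myeloid, 2 of 7 thymocyte, 1 of 4 B cell, 2 of 5 platelet, and 1 of 4 erythroid markers were called higher and 0 lower. Of all tested genes, 15.4% were called in each direction. With so few genes, the thymocyte, B cell, platelet, and erythroid counts cannot be told from that share. The erythroid markers, led by Hbb-bs, summed to 5.46, 115, and 38.3 RPKM in CCL21+ TECs, 125, 192, and 209 RPKM in RANK+ TECs, and 318 and 38.2 RPKM in reporter-negative TECs, with reporter-negative replicate 1 the highest of all libraries. The part of blood cells in these alpha chain levels was not tested. Without RANK+ replicate 1 the log2 fold change of Itgal over CCL21+ TECs was -2.15 (edgeR adjusted p = 0.00388). None of the markers was at 0 in all 8 libraries, but Gp1ba, Cd79a, and Emcn were at 0 in all CCL21+ libraries, and Gp1ba, Fcer1g, and Ms4a1 were among those at 0 in both reporter-negative libraries.

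**Figure D4:**
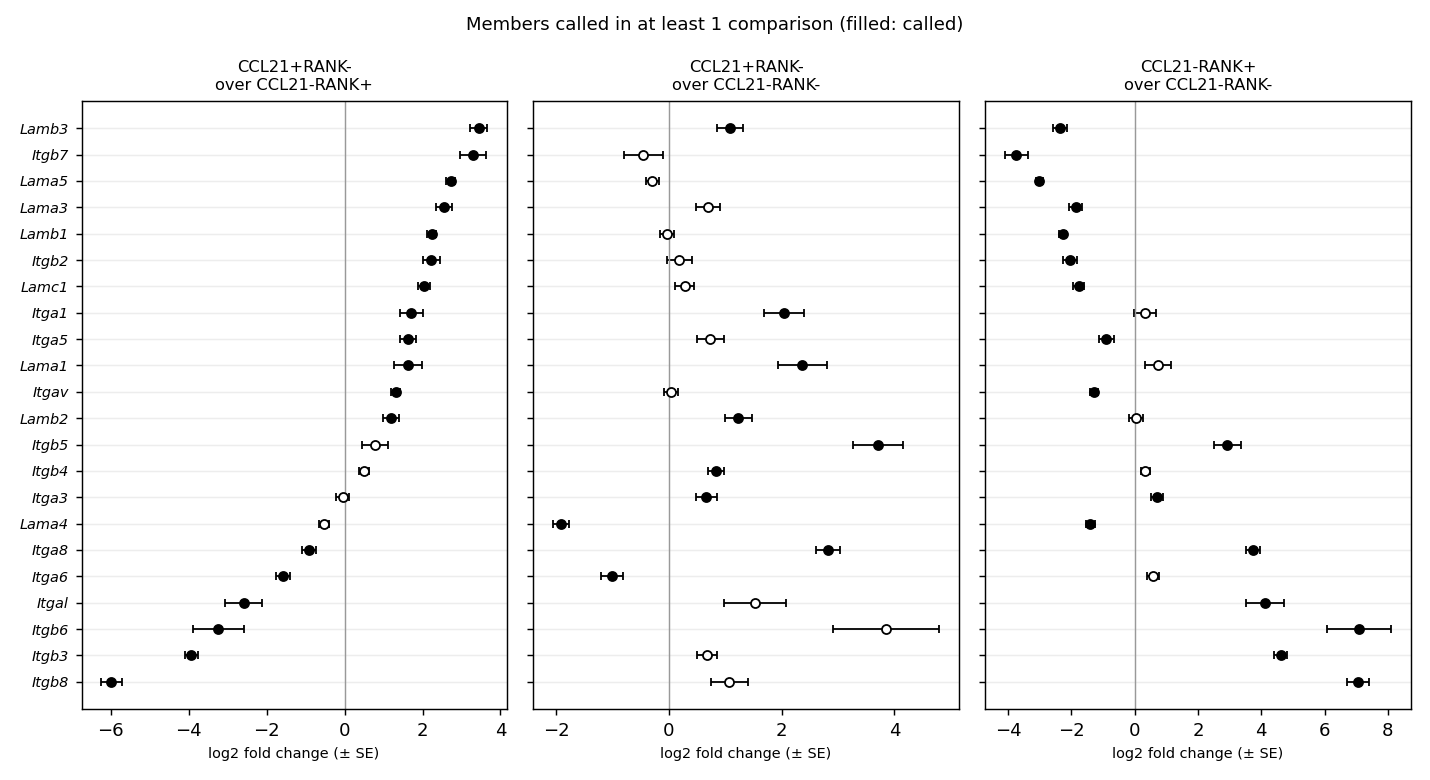
Log2 fold changes (points) with standard errors (bars) from edgeR for 22 members called in at least 1 of 3 comparisons, ordered by CCL21+ over RANK+, with filled points for calls. Lamb3 is at the top with 3.44 and Itgb8 at the bottom with -5.99 in the first panel.

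Of the 37 members, 8 shared 1 order, called lower in RANK+ than in both other populations and not called between those, as were 10.6% of all tested genes. These were Lama3, Lama5, Lamb1, Lamc1, Itga5, Itgav, Itgb2, and Itgb7. The reverse order, called higher in RANK+ TECs than in both and not called between those, was found for 4 members. They were Itgal, Itgb3, Itgb6, and Itgb8, a share near the 10.3% of all tested genes. Itga3 and Itgb5 were called lower in reporter-negative TECs than in both reporter-positive populations and not called between those (1.02% of all tested genes). Lama1, Lamb2, and Itga1 were called higher in CCL21+ TECs than in both others and not called between those (1.13% of all tested genes). Lamb3, Itga8, Itga6, Lama4, and Itgb4 each had an order of their own. Since all 3 comparisons come from the same 8 libraries, each pair of them shares a population.

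Other components of the basement membrane were also lower in RANK+ TECs for the most part. Of 24 listed partners of laminins, 14 were called higher in CCL21+ and 5 in RANK+ TECs (15.4% of all tested genes in each direction), with a median log2 fold change of 1.10 beside -0.11 over all tested genes. Against reporter-negative TECs 4 were higher and 15 lower in RANK+ TECs (14.4% and 15.1% of all tested genes, median -0.78 beside 0.06). Between CCL21+ and reporter-negative TECs 1 was higher, a share near that of all tested genes, and 3 were lower in the former (4.35% and 3.66% of all tested genes, median 0.22 beside 0). Npnt, which encodes nephronectin, was at 250.5, 143, and 157 RPKM in CCL21+ TECs, 21.8, 26.8, and 23.3 RPKM in RANK+ TECs, and 50.7 and 61.0 RPKM in reporter-negative TECs, so that this ligand was lowest where its receptor chain Itga8 was highest. Its log2 fold changes were 3.05 for CCL21+ over RANK+ TECs and 1.72 over reporter-negative TECs (edgeR adjusted p = 3.96e-06 and 0.00224). Col4a6, a collagen IV chain, was at 8.56, 2.16, and 2.43 RPKM in CCL21+ TECs and 0.101, 0.105, and 0.0675 RPKM in RANK+ TECs (log2 fold change 5.70 ± 0.58 SE, edgeR adjusted p = 3e-05), with 1.45 and 1.52 RPKM in reporter-negative TECs. Without CCL21+ replicate 1, the highest library, the log2 fold change of Col4a6 was 4.76 (edgeR adjusted p = 2.13e-06). Frem1, a protein of the zone beneath epithelial basement membranes, was higher in CCL21+ than in RANK+ TECs as well (log2 fold change 3.07 ± 0.40 SE, edgeR adjusted p = 0.000164). In the other direction, Smoc1 (log2 fold change -3.42 ± 0.28 SE) and Smoc2 (log2 fold change -3.36 ± 0.21 SE), matricellular proteins, were higher in RANK+ TECs (edgeR adjusted p = 8e-06 and 1.91e-06). Nid2, a nidogen that links laminins to collagen IV, was at 30.0, 23.2, and 33.0 RPKM in RANK+ TECs, 15.5 and 20.9 RPKM in reporter-negative TECs, and 7.77, 5.24, and 6.24 RPKM in CCL21+ TECs (log2 fold change -2.04 ± 0.17 SE, edgeR adjusted p = 7.48e-06). Mesenchyme makes nidogens too, and the mesenchyme marker sums given above were highest in RANK+ TECs. Their part in the level of Nid2 was not tested.

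Genes of the adhesion machinery that works with integrins, among them cytoplasmic linkers and membrane tetraspanins, were called in both directions. Of 32 listed genes, 15 were called higher in CCL21+ and 4 in RANK+ TECs (median log2 fold change 0.53 beside -0.11 over all tested genes), and the 4 were no larger a share than the 15.4% of all tested genes. In RANK+ against reporter-negative TECs 4 were higher and 12 lower (14.4% and 15.1% of all tested genes, median -0.28 beside 0.06), and in CCL21+ against reporter-negative TECs 3 were higher and 2 lower (4.35% and 3.66%, median 0.16 beside 0). Tns2, a tensin that binds integrin beta tails, was at 17.2, 12.6, and 13.0 RPKM in CCL21+ TECs, 0.701, 1.31, and 0.815 RPKM in RANK+ TECs, and 9.85 and 11.0 RPKM in reporter-negative TECs (log2 fold change 4.03 ± 0.26 SE for the first over the second, edgeR adjusted p = 2.15e-06). Tns1, a related tensin, had a log2 fold change of 2.79 ± 0.14 SE (edgeR adjusted p = 5.78e-07). Dst, whose product ties the integrin of hemidesmosomes to keratins, was at 38.2, 33.9, and 29.1 RPKM in CCL21+ TECs, 7.37, 5.40, and 4.48 RPKM in RANK+ TECs, and 12.4 and 15.6 RPKM in reporter-negative TECs (log2 fold change 2.69 ± 0.20 SE for the first over the second, edgeR adjusted p = 3.96e-06). Dst thus had the order of Lamb3, with CCL21+ TECs highest and RANK+ TECs lowest, and not that of Itga6. Higher in RANK+ TECs were Cib1 (log2 fold change -1.22 ± 0.09 SE), a calcium and integrin binding protein, Cd9 (log2 fold change -1.63 ± 0.23 SE), a tetraspanin, and Parvg (log2 fold change -2.10 ± 0.64 SE), a parvin of blood cells (edgeR adjusted p = 3.75e-06, 0.00025, and 0.0194). Parvg was at 2.34, 0.865, and 1.19 RPKM in RANK+ TECs, highest in the same library as the myeloid markers, and its call was lost without that library (edgeR adjusted p = 0.0659) or CCL21+ replicate 2 (edgeR adjusted p = 0.0656). Without CCL21+ replicate 1 the log2 fold change of Parvg was -2.97 (edgeR adjusted p = 0.00444).

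Among 24 listed other ligands of integrins the directions were mixed. Called were 8 higher in CCL21+ and 6 in RANK+ TECs (15.4% of all tested genes in each direction, median log2 fold change 0.37 beside -0.11). In RANK+ against reporter-negative TECs 8 were higher and 4, a share near that of all tested genes, were lower (14.4% and 15.1%, median 0.24 beside 0.06). In CCL21+ against reporter-negative TECs 8 were higher and 0 lower (4.35% and 3.66%, median 0.43 beside 0). Fn1, which encodes fibronectin, was at 492, 449.6, and 422 RPKM in CCL21+ TECs, 36.1, 54.8, and 39.2 RPKM in RANK+ TECs, and 238 and 258 RPKM in reporter-negative TECs. It was 11.3-fold higher in CCL21+ than in RANK+ TECs (log2 fold change 3.50 ± 0.22 SE, edgeR adjusted p = 1.9e-06), in the direction of its receptor chain Itga5. Madcam1, a ligand of Itgb7 integrins, was at 25.1, 19.6, and 24.8 RPKM in RANK+ TECs, 0.140, 0.499, and 0.404 RPKM in CCL21+ TECs, and 0.330 and 0.282 RPKM in reporter-negative TECs (log2 fold change -5.95 ± 0.38 SE for CCL21+ over RANK+ TECs, edgeR adjusted p = 2.01e-06), and thus highest in the population where Itgb7 was lowest. Ibsp (log2 fold change 1.99 ± 0.53 SE) was higher in CCL21+ TECs, and Spp1 (log2 fold change -2.69 ± 0.66 SE) and Col1a1 (log2 fold change -4.73 ± 0.73 SE) were higher in RANK+ TECs (edgeR adjusted p = 0.0102, 0.00674, and 0.000469). Spp1 was at 17.2, 3.73, and 4.85 RPKM in RANK+ and at 1.39, 0.356, and 1.92 RPKM in CCL21+ TECs. Without RANK+ replicate 1, the highest library, its log2 fold change was -1.77 (edgeR adjusted p = 0.0251) and that of Col1a1 -4.34 (edgeR adjusted p = 0.00107). The call of Ibsp was lost without CCL21+ replicate 2 (edgeR adjusted p = 0.0575), and its log2 fold change was 2.66 without RANK+ replicate 1 (edgeR adjusted p = 0.00213). Ibsp and Spp1 encode bone matrix proteins with sites for Itgav integrins, and both were nearly absent from reporter-negative TECs, with 2 and 2 counts of Ibsp and 1 and 0 counts of Spp1. Col1a1 is also on the mesenchyme marker list and the most abundant gene of it.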

How the data were processed

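The deposited table holds expected counts per gene, which the authors made from reads of CD45-EpCAM+ TECs. The submitters' processing notes name bcl2fastq 2.20, Trimmomatic, STAR 2.5.1, RSEM 1.3.1, and mm10. RSEM divides a read that matches several genes among them, so that a library held 4.47% to 5.94% of values that were not whole numbers. The sample records name a NEBNext Ultra II Directional kit and the paper a TruSeq Stranded Total RNA kit. Whether counting used strand is not given in the sources used here.

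The gene families and the lists of other genes were chosen with earlier results of these data known, and the members of the families were then taken by symbol. Rounded counts went into edgeR 4.0.16 (R 4.3.3), with TMM scaling, its default filter on expression, 1 quasi-likelihood fit of 3 group means over all 8 libraries, and Benjamini-Hochberg adjustment over 21451 tested genes. This stood in for CLC Genomics Workbench, named by the study, whose thresholds were kept. All 37 members passed the filter. RPKM was calculated from library totals and GENCODE M21 exon lengths, and can differ from edgeR's fold changes, which use TMM. Within each group, libraries were further apart than sampling noise (chi-square per gene 77.3 to 275), so that no pair was taken as repeats of 1 library, and the common biological coefficient of variation was 0.326. Gm26917 and Gm42418 took 8.40% to 23.2% of the counts of a library. Certain genes are not reported here. All other members are named, and values in every library are given at least for those that were called and reached a mean of 5 RPKM. Named from each other list are the 3 called genes with the largest fold change in each direction between CCL21+ and RANK+ TECs. The fit was tested on simulated counts. Alternatives were DESeq2 1.42.0 and its size factors, other filters and thresholds, a replicate block, fits without Gm26917 and Gm42418, and leaving out each library. Promoter windows were from RefSeq.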

Additional observations from a re-analysis of the deposited data

How the results depend on the processing

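Of 47 calls of a member in a comparison, 33 held under all of the 17 alternatives that could be fitted, 14 were lost under at least 1, and none changed direction. Calls were lost when a library was left out or when the fold change itself was tested against 1.5. In edgeR this last test left 5 instead of 9 members higher in CCL21+ than in reporter-negative TECs, 1 instead of 2 lower, and 9 instead of 16 genes of the other lists in that comparison, while the shares of all tested genes went from 4.35% and 3.66% to 1.97% and 1.18%. With an adjusted p-value alone, 14 instead of 6 members were higher in RANK+ than in CCL21+ TECs, and 18 instead of 8 than in reporter-negative TECs, while the shares of all tested genes rose from 15.4% to 30.6% and from 14.4% to 27.0%. Leaving out each library in turn gave at most 10 members higher in CCL21+ than in reporter-negative TECs, 2 lower, and 18 genes of the other lists. The shares of all tested genes called higher and lower reached at most 5.36% and 4.79%, without RANK+ replicate 1. Without either reporter-negative library fewer members were called higher and fewer genes of the other lists were called, as were fewer of all tested genes. Comparisons with reporter-negative TECs thus rest on 2 libraries, and without either the lone library is assumed to vary like those of the other groups. With DESeq2's size factors the median log2 fold change of all genes was -0.20 instead of -0.11 for CCL21+ over RANK+ TECs and 0.20 instead of 0.06 for RANK+ over reporter-negative TECs, and all 47 calls were kept.

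With the replicate number as a block, all 47 calls were kept. The block gave 13 and 6 members higher in CCL21+ and RANK+ TECs, 11 and 2 in CCL21+ and reporter-negative TECs, and 9 and 10 in RANK+ and reporter-negative TECs. The shares of all tested genes under the block were 15.5% and 15.4%, 4.8% and 4.12%, and 14.2% and 15.3% in the same order. For CCL21+ against reporter-negative TECs these shares were 4.35% and 3.66% without the block. Over all genes it moved the calls between CCL21+ and RANK+ TECs from 3311 and 3306 to 3320 and 3296. Deviations of same-numbered CCL21+ and RANK+ libraries correlated at 0.0485 to 0.126 (3 pairs) and those of other pairs at -0.0984 to 0.041 (6 pairs). Between these populations each library correlated best with its own number, a hint from the data only. Same-numbered pairs with a reporter-negative library correlated at -0.117 to -0.0411, and CCL21+ replicate 2 correlated best with reporter-negative replicate 1 (0.117). The numbers were therefore not taken as pairs.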
